A study of Arabidopsis thaliana with 16 samples.

Results

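The berberine bridge enzyme family is represented here by 7 Arabidopsis thaliana loci, AT4G20830, AT4G20860, AT1G26380, AT1G26390, AT1G26400, AT1G26410 and AT1G26420. They were chosen by locus name, from a set of oxidoreductase genes that includes a row of neighbours on chromosome 1. Earlier results of these data were known when they were chosen. They make up 7 of the 13286 loci to which the annotation used gives a probe set of their own on the Affymetrix ATH1 array. Each of the 7 has exactly such a probe set, which is a group of short probes read as 1 signal. Leaves of 4-week-old plants were profiled in 8 groups of 2 arrays, namely the mutants atgsnor1-1, atgsnor1-3 and sid2 and the wild type Col-0, each 6 h after avrB and untreated. AvrB is a protein that Pseudomonas syringae delivers into plant cells, and plants with the resistance protein RPM1 detect it. GSNOR1 encodes S-nitrosoglutathione reductase. The line atgsnor1-3 is known for a loss of that enzyme, atgsnor1-1 for raised activity of it, and sid2 for a defect in isochorismate synthase, a source of salicylic acid. The labels give a stock code for Col-0 only and no mock inoculation, and state a time only for the avrB leaves. The inoculation itself and the hour of harvest therefore cannot be told apart from avrB.

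Enzymes of this family carry a covalently bound FAD, and several of them pass electrons from their substrate to oxygen, which yields hydrogen peroxide. The family takes its name from an enzyme of alkaloid synthesis in poppies, but most of the Arabidopsis members studied so far act elsewhere. AT4G20830 encodes OGOX1, which oxidises oligogalacturonides, the fragments of pectin that plants sense as a sign of cell wall damage. AT4G20860 encodes CELLOX, which oxidises cellodextrins, the corresponding fragments of cellulose. AT1G26380 encodes FOX1, an enzyme of the indole carbonyl nitrile branch of defence metabolism that starts from tryptophan.

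The 5 loci on chromosome 1 stand side by side with 0 annotated genes between neighbours, and AT4G20830 and AT4G20860 lie near each other on chromosome 4 with 3 genes between them. Signals are linear MAS5 intensity units. Of the 7 loci, AT4G20830, AT4G20860, AT1G26380 and AT1G26420 had a mean signal above 20.2 units, the level below which the dimmest 40% of probe sets were not tested. The other 3, AT1G26390, AT1G26400 and AT1G26410, lay below it. AT4G20830 exceeded that level on every array, and AT4G20860, AT1G26380 and AT1G26420 did so through their signal after avrB, so a count over these 4 is not a count over the family.

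A probe set was called when limma's adjusted p was under 0.05 and its log2 difference at least 1 in size, a fold of 2. The labels do not say that the 2 arrays of a group came from separate plants, so the p-values reflect the spread between these arrays alone, and that spread may be technical. A leaf sample mixes cell types, and a change in the number of cells of a type cannot be told apart from a change of RNA per cell. Median signals lay between 33.1 and 40.9 units over the 16 arrays, and the 2 arrays of a group correlated at r = 0.884 to 0.934 over probe sets. Marker genes for the tissue could be read only in part, as 8730 probe sets had no gene name in the annotation used. A named probe set existed for 1 of 12 markers of leaf mesophyll, 2 of 5 of guard cells and 1 of 4 of roots. Those for phloem, epidermis and flowers were not analysed here. RCA, which encodes Rubisco activase of green leaf cells, had 2873 to 7364 units on every array. It was lower after avrB in every genotype, at 0.517 to 0.600 of the untreated level. These log2 differences of -0.95 to -0.74 (limma, adjusted p = 0.000475 to 0.00432) missed a call on size alone. Neither guard cell gene was called in any of the 17 comparisons, but AT1G22690 missed a call on size alone in several. It was higher in untreated atgsnor1-3 than in Col-0 by 0.99 (adjusted p = 0.00177), and higher in atgsnor1-3 after avrB than in atgsnor1-1 by 0.96 (0.00135) and than in sid2 by 0.83 (0.00606). In atgsnor1-1 its difference after avrB was -0.91 (0.00141). Its response in atgsnor1-1 differed from that of Col-0 by -1.24, which passed on size and lay just above the p threshold (limma, adjusted p = 0.05001). The other guard cell gene, AT3G24140, also missed a call on size alone, in atgsnor1-3 against Col-0 after avrB at -0.91 (limma, adjusted p = 0.0444). AT1G22690 went the other way there, at 0.52 (adjusted p = 0.0563). The part of guard cells in the results was not tested. The root hair gene EXPA7 lay between 3.00 and 44.2 units.

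All 4 tested members were called higher after avrB than in untreated leaves in each of the mutants, and 3 of the 4 in Col-0. The 4 increases in atgsnor1-3 lay between 31.6-fold and 129.8-fold, those in sid2 between 14.1-fold and 101-fold, those in atgsnor1-1 between 7.46-fold and 19.7-fold, and the 3 called in Col-0 between 4.41-fold and 38.0-fold. Over all 13647 tested probe sets, 8.58% were called higher after avrB in atgsnor1-1, 15.0% in atgsnor1-3, 10.9% in sid2 and 7.31% in Col-0. The probe sets called lower made up 10.5%, 20.0%, 11.6% and 5.07% in the same order of genotypes, and no tested member was among them. Since 3 of the 4 had passed the filter through their signals after avrB, their count is a description and is not read against these shares. The median log2 difference over all tested probe sets lay between -0.16 and 0.05 over the 17 comparisons made.

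**Figure D1:**
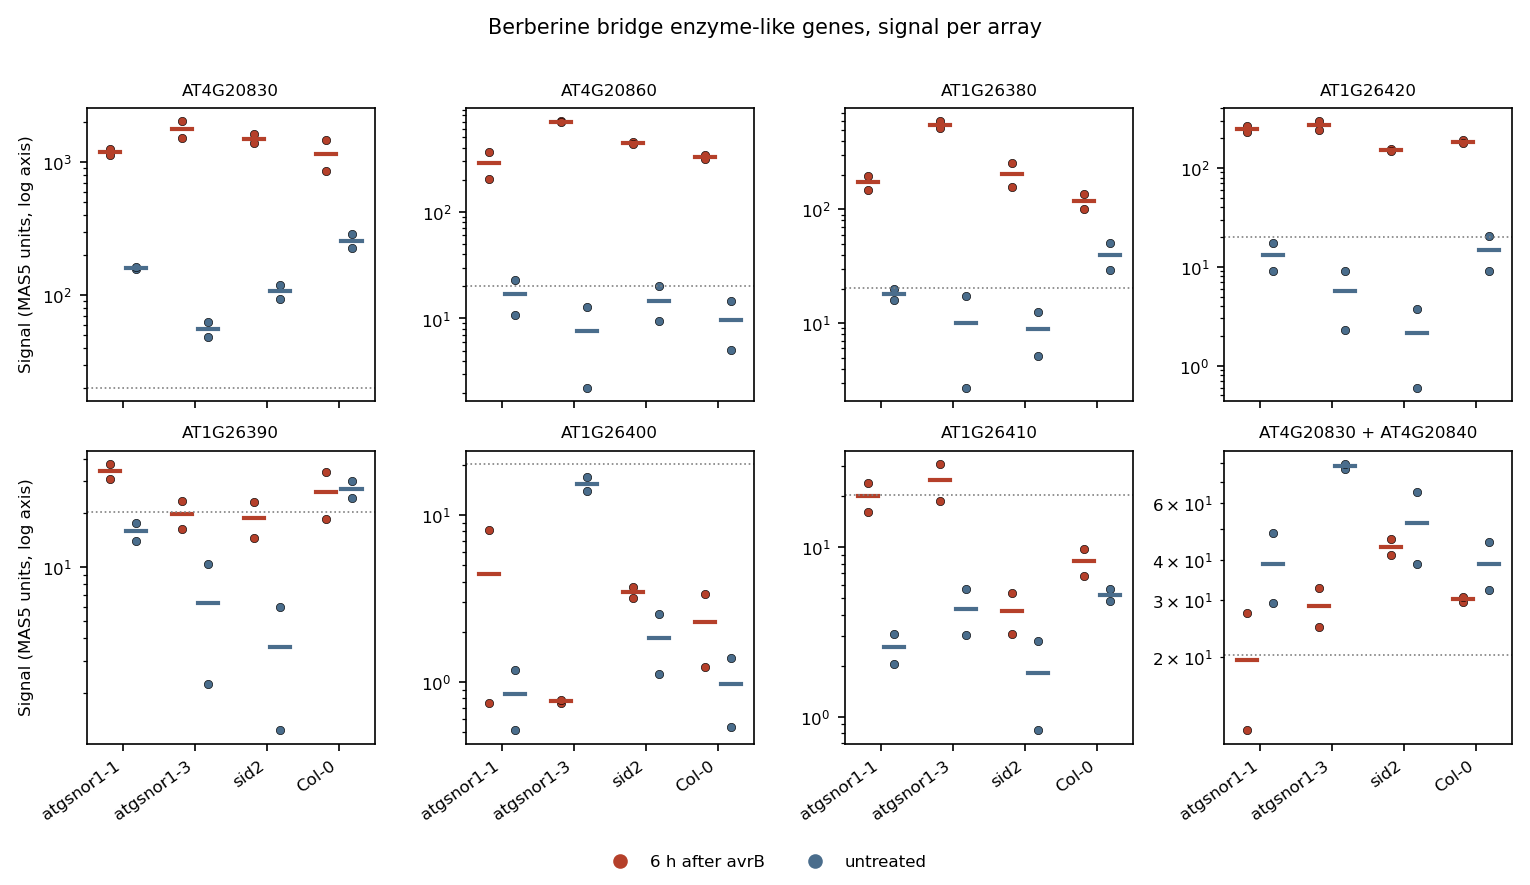
Signals of the 7 family members, and of the probe set shared by AT4G20830 and AT4G20840, on each of the 16 arrays, in MAS5 intensity units on a log axis, with 1 point per array and a bar at the mean of the 2 arrays, avrB left of untreated in each genotype. The dotted line marks 20.2 units, the filter level. In every genotype both avrB arrays of the 4 tested members lie above both untreated arrays, with AT1G26380 in Col-0 nearest, at 100.5 and 136 units after avrB against 29.1 and 50.8 units untreated and not called, while AT1G26390, AT1G26400 and AT1G26410 stay at or below 37.3 units on every array. The tested members other than AT4G20830 passed the filter through their signals after avrB. The share of all probe sets with such a gap was not counted, so the gap is a description.

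AT4G20830, the OGOX1 gene, was the only member with a signal well above the filter level in untreated leaves. Its signals were 1137 and 1271 units after avrB and 159 and 164 units untreated in atgsnor1-1. In atgsnor1-3 they were 1516 and 2033 units after avrB, against 48.8 and 63.2 units untreated. The 2 untreated arrays of atgsnor1-3 were the lowest of the 16 for this gene. In sid2 the signals were 1624 and 1388 units after avrB and 94.6 and 120.2 units untreated. Col-0 had 862 and 1468 units after avrB and 226 and 287 units untreated. After avrB the 2 Col-0 arrays enclosed both atgsnor1-1 arrays, and the sid2 arrays overlapped with those of Col-0 and of atgsnor1-3. Both atgsnor1-3 arrays lay above those of Col-0 and atgsnor1-1, and both sid2 arrays above those of atgsnor1-1. The untreated arrays fell into the order Col-0, atgsnor1-1, sid2 and atgsnor1-3 without overlap.

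The log2 difference between avrB and untreated leaves for AT4G20830 was 2.90 ± 0.23 in atgsnor1-1 (limma, SE, adjusted p = 2.14e-07), 4.98 ± 0.23 in atgsnor1-3 (adjusted p = 1.23e-10), 3.82 ± 0.23 in sid2 (adjusted p = 4.79e-09) and 2.14 ± 0.23 in Col-0 (adjusted p = 8.35e-06). The response was larger than that of Col-0 by 2.84 ± 0.33 in atgsnor1-3 (limma's test of the difference, adjusted p = 2.78e-05). In sid2 it was larger by 1.67 ± 0.33 (adjusted p = 0.00888), and in atgsnor1-1 the difference of 0.76 (95% interval 0.06 to 1.45) did not pass the adjusted threshold (adjusted p = 0.356). The sid2 value did not pass without sid2 avrB replicate 1 (adjusted p = 0.0570), without sid2 untreated replicate 1 (0.0503), without Col-0 avrB replicate 1 (0.0557) or with a variance fitted without a trend (0.0534).

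At rest, AT4G20830 was lower than in Col-0 by 2.20 ± 0.23 on the log2 scale in atgsnor1-3, which is 0.218 of the Col-0 level (limma, adjusted p = 5.06e-06). In sid2 the difference was -1.26 ± 0.23, or 0.418 of the Col-0 level (adjusted p = 0.00185), and in atgsnor1-1 it was -0.66 ± 0.23 (adjusted p = 0.403). Untreated atgsnor1-3 also lay below untreated atgsnor1-1, by -1.54 ± 0.23 (adjusted p = 0.000312), and its difference of -0.94 ± 0.23 from untreated sid2 stayed under the size required for a call (adjusted p = 0.0325). After avrB no difference between genotypes was called for this gene. The one of atgsnor1-3 from Col-0 was 0.64 ± 0.23 (adjusted p = 0.0549), and it reached 1.03 with adjusted p = 0.0101 without Col-0 avrB replicate 2.

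A second probe set is annotated to AT4G20830 together with its neighbour AT4G20840, the OGOX2 gene, and it did not follow the first. It read 24.7 and 32.7 units after avrB against 76.7 and 79.4 units untreated in atgsnor1-3, and 29.6 and 30.7 units after avrB against 32.3 and 45.5 units untreated in Col-0. In atgsnor1-3 this signal fell by 1.46 ± 0.41 on the log2 scale (limma, adjusted p = 0.00691), a call that was lost without atgsnor1-3 avrB replicate 1 (-1.26, adjusted p = 0.0543). It was not called in the other genotypes, where the differences were -1.07 in atgsnor1-1, -0.20 in sid2 and -0.35 in Col-0. The value in atgsnor1-1 was called when 1 array was left out, at -1.68 without avrB replicate 2 (adjusted p = 0.00917) and at -1.43 without untreated replicate 2 (adjusted p = 0.0447). Which of the 2 transcripts this probe set reads was not tested, because probe sequences were not used here.

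AT4G20860, the CELLOX gene, was close to the array's lower range in every untreated leaf sample. It had 203 and 367 units after avrB, against 10.9 and 23.1 units untreated, in atgsnor1-1. In atgsnor1-3 the signals were 705 and 692 units after avrB and 2.25 and 12.9 units untreated. These were the 2 highest arrays of the 16 for this gene, and all 8 avrB arrays lay above all 8 untreated arrays. In sid2 it had 447 and 428 units after avrB and 20.0 and 9.39 units untreated. Col-0 showed 339 and 311 units after avrB against 14.5 and 5.03 units untreated. No untreated genotype stood apart from the others.

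The log2 response of AT4G20860 was 4.11 ± 0.64 in atgsnor1-1 (limma, adjusted p = 0.000119), 7.02 ± 0.64 in atgsnor1-3 (adjusted p = 1.66e-07), 5.00 ± 0.64 in sid2 (adjusted p = 1.32e-05) and 5.25 ± 0.64 in Col-0 (adjusted p = 2.56e-05). None of the 3 differences in response from Col-0 passed the test, at -1.14 in atgsnor1-1 (95% interval -3.07 to 0.79), 1.77 in atgsnor1-3 (-0.15 to 3.70) and -0.25 in sid2 (-2.18 to 1.68). Some of the untreated duplicates behind these intervals lay far apart, such as the 2.25 and 12.9 units of atgsnor1-3. After avrB, atgsnor1-3 lay above Col-0 by 1.10 ± 0.64 (adjusted p = 0.235). That difference was called with a pseudocount of 9.48 units (1.08, adjusted p = 0.0190) and in a fit of the atgsnor1-3 and Col-0 avrB arrays alone (adjusted p = 0.000134).

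AT1G26380, the FOX1 gene and first of the chromosome 1 row, showed the widest spread between genotypes after avrB. Its signals in atgsnor1-1 were 149.6 and 198 units after avrB and 16.1 and 19.9 units untreated. In atgsnor1-3 they were 594 and 516 units after avrB, against 2.72 and 17.3 units untreated. The avrB arrays of atgsnor1-3 stood above every other array for this gene. In sid2 the signals were 254 and 157 units after avrB and 5.20 and 12.7 units untreated. Col-0 had 100.5 and 136 units after avrB and 29.1 and 50.8 units untreated, the lowest signals after avrB and the highest at rest. The Col-0 arrays after avrB did not overlap with those of any mutant.

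The log2 response of AT1G26380 was 3.27 ± 0.61 in atgsnor1-1 (limma, adjusted p = 0.000573), 6.34 ± 0.61 in atgsnor1-3 (adjusted p = 3.08e-07) and 4.62 ± 0.61 in sid2 (adjusted p = 1.79e-05). In Col-0 it was 1.61 ± 0.61 and not called (adjusted p = 0.0668). The Col-0 value was called with a pseudocount of 9.48 units (1.39, adjusted p = 0.00362), with only the Col-0 arrays in the fit (adjusted p = 0.00542) and with the replicate number as a block (adjusted p = 0.0421). The response of atgsnor1-3 exceeded that of Col-0 by 4.73 ± 0.86 on the log2 scale (95% interval 2.89 to 6.56, adjusted p = 0.00120). The corresponding difference was 3.01 ± 0.86 in sid2 (adjusted p = 0.0830) and 1.66 ± 0.86 in atgsnor1-1 (adjusted p = 0.468), and neither was called, although the sid2 value passed with a pseudocount of 9.48 units (2.14, adjusted p = 0.0113).

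For AT1G26380, atgsnor1-3 differed from Col-0 in both states. After avrB it lay above Col-0 by 2.24 ± 0.61, or 4.73-fold (limma, adjusted p = 0.0131). That call was lost without atgsnor1-3 avrB replicate 1 (adjusted p = 0.0698), without atgsnor1-3 avrB replicate 2 (0.0557) and without Col-0 avrB replicate 1 (0.0946). Untreated, atgsnor1-3 lay below Col-0 by -2.49 ± 0.61 (adjusted p = 0.0100), and sid2 by -2.24 ± 0.61 (adjusted p = 0.0257). With a pseudocount of 9.48 units these differences were both -1.42 (adjusted p = 0.00500 and 0.00684). Without a pseudocount, the atgsnor1-3 call was lost without atgsnor1-3 untreated replicate 1 (adjusted p = 0.104), without Col-0 untreated replicate 2 (0.0840) and in a fit of only these 2 groups (0.158). The sid2 call was lost without sid2 untreated replicate 1 (0.243), without Col-0 untreated replicate 2 (0.175), without a variance trend (0.0709) and in a fit of only these 2 groups (0.0635).

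AT1G26420 closes the chromosome 1 row. It had 231 and 264 units after avrB and 8.96 and 17.5 units untreated in atgsnor1-1. Signals in atgsnor1-3 were 244 and 296 units after avrB and 2.27 and 9.03 units untreated. In both of these genotypes all avrB arrays lay above the Col-0 and sid2 arrays after avrB. In sid2 it had 155 and 147 units after avrB against 3.72 and 0.598 units untreated. Col-0 showed 191 and 179 units after avrB and 8.99 and 20.7 units untreated.

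The log2 response of AT1G26420 was 4.30 ± 0.71 in atgsnor1-1 (limma, adjusted p = 0.000201), 5.89 ± 0.71 in atgsnor1-3 (adjusted p = 3.75e-06), 6.66 ± 0.71 in sid2 (adjusted p = 2.05e-06) and 3.76 ± 0.71 in Col-0 (adjusted p = 0.00111). No difference in response from Col-0 was called, at 0.54 in atgsnor1-1 (95% interval -1.60 to 2.68), 2.13 in atgsnor1-3 (-0.01 to 4.27) and 2.90 in sid2 (0.76 to 5.04). With a pseudocount of 9.48 units, the atgsnor1-3 difference was 1.20 and passed (adjusted p = 0.0392), and the sid2 difference was 0.76 and did not (adjusted p = 0.418). Untreated sid2 lay below untreated Col-0 by -3.19 ± 0.71, at 0.109 of the Col-0 level (adjusted p = 0.00756), and with that pseudocount by -1.03, at 0.489 of it (adjusted p = 0.0194). The first value lost its call without sid2 untreated replicate 2, the array at 0.598 units (adjusted p = 0.117), without Col-0 untreated replicate 2 (0.0874) and in a fit of only these 2 groups (0.439).

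**Figure D2:**
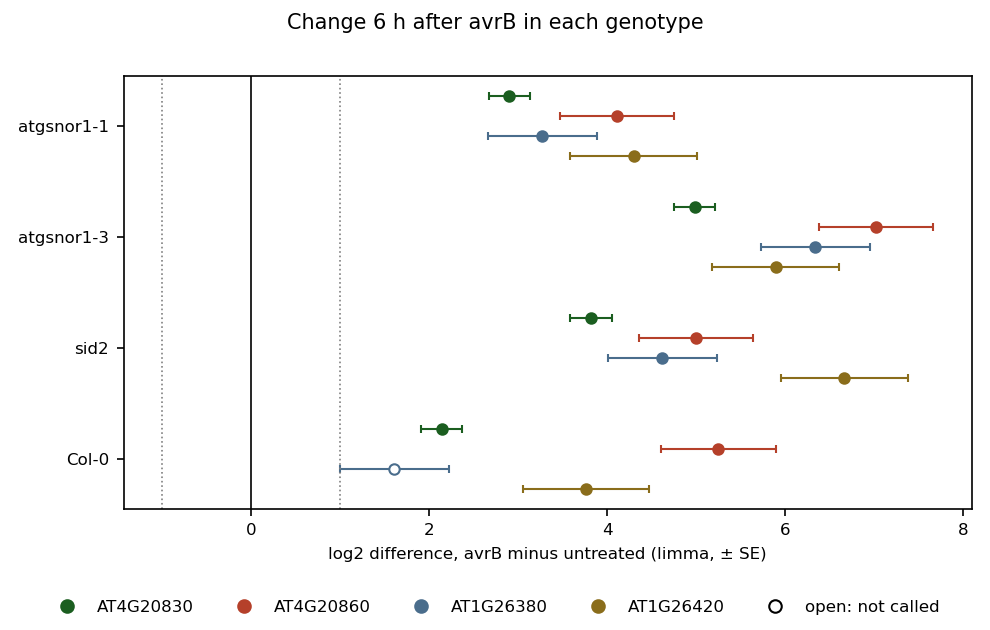
Log2 difference between avrB and untreated leaves for the 4 tested members in each genotype, with bars for the SE of the limma fit, where filled symbols were called and open ones were not. The responses of atgsnor1-3 reach 7.02 for AT4G20860, and the only open symbol is AT1G26380 in Col-0 at 1.61.

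The size of these folds depends on untreated signals in the lowest part of the scale. When 9.48 units, the lower quartile over all arrays, were added to every signal before the log, the increase of AT4G20860 was 11.0-fold in atgsnor1-1, 43.7-fold in atgsnor1-3, 18.9-fold in sid2 and 17.9-fold in Col-0. The increase of AT1G26380 was then 6.64-fold in atgsnor1-1, 31.2-fold in atgsnor1-3 and 11.6-fold in sid2, and that of AT1G26420 was 11.5-fold, 18.9-fold and 13.9-fold in the same order, with 8.23-fold in Col-0. The AT4G20830 increase changed little, to 7.10-fold in atgsnor1-1, 27.1-fold in atgsnor1-3, 13.0-fold in sid2 and 4.29-fold in Col-0. All of these stayed called. No direction of a called difference turned under any alternative.

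At rest, tested members were lower than in Col-0 in atgsnor1-3 and in sid2. In untreated leaves, 0 of the 4 tested members were called in atgsnor1-1 by limma, with 1 at an unadjusted p under 0.05, and 0.147% of all tested probe sets were called. In untreated atgsnor1-3, AT4G20830 and AT1G26380 were lower, 2 of the 4, with 8.79% of all probe sets called in either direction. In untreated sid2, AT4G20830, AT1G26380 and AT1G26420 were lower, 3 of the 4, with 5.92% of all probe sets called. AT4G20860 was called in none of the 3, at 0.89 in atgsnor1-1, -0.67 in atgsnor1-3 and 0.68 in sid2. These comparisons share the 2 untreated Col-0 arrays. The members were chosen with earlier results of these data known, so their counts here and in the comparisons below are not read against the shares. Without atgsnor1-3 untreated replicate 2, which had the higher of the 2 signals for each tested member, all 4 were called lower in atgsnor1-3, with AT4G20860 at -1.93 (adjusted p = 0.0300) and AT1G26420 at -2.58 (adjusted p = 0.0298).

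After avrB, limma called 0 of the 4 tested members in atgsnor1-1 against Col-0, with 0 at an unadjusted p under 0.05 and 0.161% of all probe sets called. In atgsnor1-3 it called 1 of the 4, AT1G26380, with 13.1% of all probe sets called, and in sid2 it called 0 of the 4, with 0 at an unadjusted p under 0.05 and 1.50% of all probe sets called. The differences of sid2 from Col-0 after avrB were 0.42 for AT4G20830, 0.43 for AT4G20860, 0.77 for AT1G26380 and -0.29 for AT1G26420. The sid2 signals of these genes thus lay below those of Col-0 at rest, apart from AT4G20860, and within 1.70-fold of them after avrB.

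As for the differences in response, 0 of the 4 were called in atgsnor1-1, with 1 at an unadjusted p under 0.05 and 0.557% of all probe sets called. In atgsnor1-3, AT4G20830 and AT1G26380 were called, 2 of the 4, beside 15.1% of all probe sets, and in sid2 AT4G20830 was called, 1 of the 4, beside 2.60%. Without atgsnor1-3 untreated replicate 2, all 4 were called in atgsnor1-3, with AT4G20860 at 3.03 (adjusted p = 0.00801) and AT1G26420 at 3.12 (adjusted p = 0.0345). In sid2, AT1G26420 was called at 4.22 (adjusted p = 0.0161) without sid2 untreated replicate 1.

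The 2 atgsnor1 lines were also compared with each other, and atgsnor1-3 with sid2. Untreated atgsnor1-3 against atgsnor1-1 gave 1 call among the 4, AT4G20830, with 6.25% of all probe sets called, and the other 3 members had differences of -1.38 to -1.56. These 3 were called without atgsnor1-3 untreated replicate 2, at -2.82 for AT4G20860 (adjusted p = 0.00333), -2.72 for AT1G26380 (0.000919) and -2.46 for AT1G26420 (0.0488). Untreated atgsnor1-3 against sid2 gave 0 calls in limma, with 2 at an unadjusted p under 0.05 and 2.25% of all probe sets called. Without atgsnor1-3 untreated replicate 2 it called AT4G20830 (-1.13, adjusted p = 0.0285) and AT4G20860 (-2.61, 0.0124). AT1G26420 was called higher in atgsnor1-3 than in sid2 without atgsnor1-3 untreated replicate 1 (2.60, 0.0486) or without sid2 untreated replicate 1 (2.92, 0.0346). After avrB, atgsnor1-3 against atgsnor1-1 gave 0 calls, with 2 at an unadjusted p under 0.05 and 14.4% of all probe sets called. The nearest was AT1G26380 at 1.68 ± 0.61 (adjusted p = 0.0519), which passed with the replicate number as a block (adjusted p = 0.0322) and with a pseudocount of 9.48 units (1.63, 0.000969), as did AT4G20860 with that pseudocount (1.32, 0.00478). After avrB, atgsnor1-3 against sid2 gave 0 calls, with 1 at an unadjusted p under 0.05 and 8.86% of all probe sets called. With the same pseudocount AT1G26380 passed there too, at 1.43 (adjusted p = 0.00461).

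**Figure D3:**
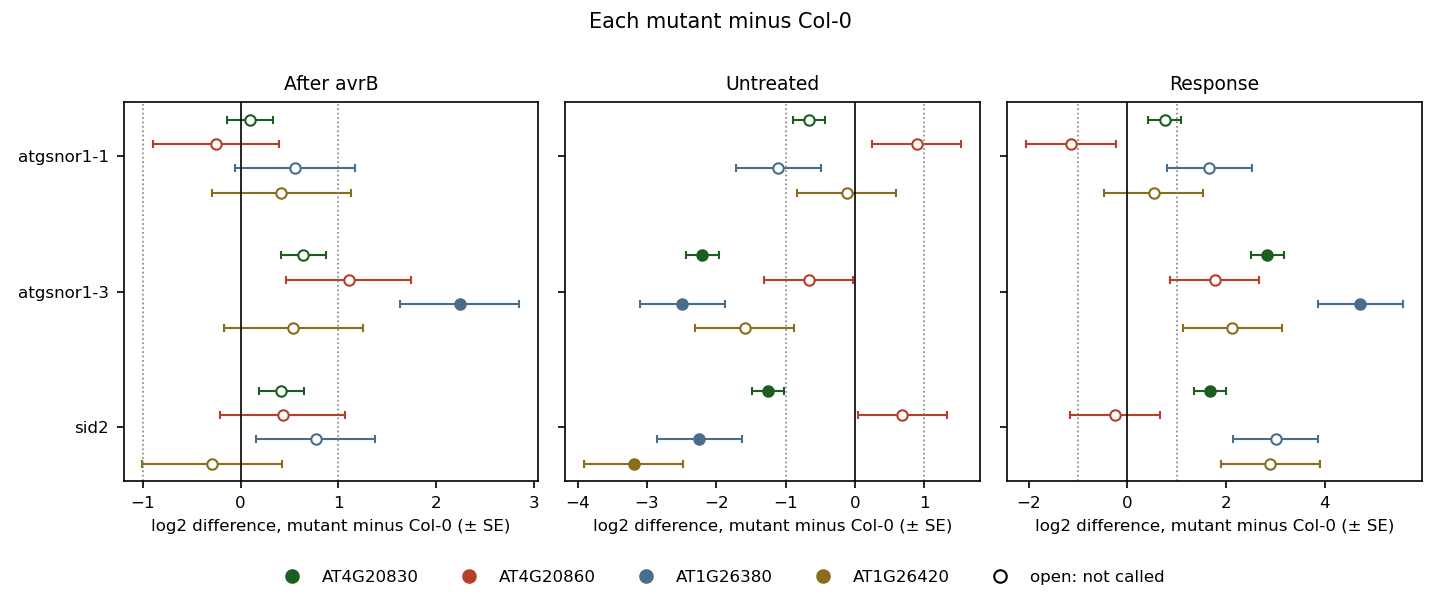
Log2 differences between each mutant and Col-0 for the 4 tested members after avrB and untreated, and the difference between the responses of each mutant and Col-0, with bars for the SE of the limma fit, filled where called. Untreated sid2 and atgsnor1-3 lie below 0 for AT4G20830, AT1G26380 and AT1G26420, and after avrB the single filled symbol is AT1G26380 in atgsnor1-3 at 2.24. In the panel of responses AT1G26380 in atgsnor1-3 reaches 4.73.

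The 3 dimmer members of the chromosome 1 row gave no signal above 37.3 units. AT1G26390 had 31.0 and 37.3 units after avrB and 14.0 and 17.6 units untreated in atgsnor1-1, and 33.8 and 18.4 units after avrB and 29.9 and 24.2 units untreated in Col-0. In atgsnor1-3 it had 16.3 and 23.2 units after avrB against 2.23 and 10.3 units untreated, and in sid2 14.4 and 22.8 units after avrB against 5.94 and 1.23 units untreated. Its avrB arrays lay above the untreated ones in the 3 mutants, and the 2 states overlapped in Col-0.

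AT1G26410 had 23.9 and 16.1 units after avrB against 3.09 and 2.05 units untreated in atgsnor1-1, and 30.9 and 18.7 units after avrB against 5.63 and 3.04 units untreated in atgsnor1-3. In sid2 it had 3.07 and 5.34 units after avrB and 2.78 and 0.830 units untreated, and in Col-0 9.75 and 6.76 units after avrB and 4.80 and 5.63 units untreated. The 4 avrB arrays of the atgsnor1 lines were thus above all others for this gene.

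AT1G26400 went the other way in atgsnor1-3, with 0.752 and 0.778 units after avrB against 16.9 and 14.0 units untreated. All other groups lay between 0.513 and 8.15 units for it. Its 2 untreated atgsnor1-3 arrays were the highest of the 16, yet below the filter level.

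In a limma fit without the filter, the following differences of these dim loci passed the threshold, out of 17 comparisons for each locus. The share over all probe sets called in that fit is not given here, so these calls are a description. AT1G26410 rose by 2.96 ± 0.89 on the log2 scale in atgsnor1-1 (adjusted p = 0.0249) and by 2.54 ± 0.89 in atgsnor1-3 (adjusted p = 0.0368). AT1G26390 rose by 2.75 ± 0.83 in sid2 (adjusted p = 0.0228), where its untreated level was lower than in Col-0 by -3.32 ± 0.83 (adjusted p = 0.0230). AT1G26400 fell by 4.33 ± 1.10 in atgsnor1-3 (adjusted p = 0.00539), and its response there differed from that of Col-0 by -5.56 ± 1.56 (adjusted p = 0.0314). Untreated, it was higher in atgsnor1-3 than in Col-0 by 4.15 ± 1.10 (adjusted p = 0.0242) and higher than in atgsnor1-1 by 4.31 ± 1.10 (adjusted p = 0.0258). No detection calls were used, and whether signals this low measure transcript was not tested. The 5 neighbours belong to 1 family, and cross-hybridisation between their probe sets was not tested.

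The tested members moved together over the 16 arrays, as a description. Pearson correlations of their log2 signals lay between 0.902 and 0.956 for the 6 pairs. The points share arrays and fall into an avrB and an untreated cluster, and the correlations read that split. Within the 8 avrB arrays, AT4G20860 and AT1G26380 correlated at 0.837 and AT4G20830 and AT1G26380 at 0.761, whereas AT4G20830 and AT1G26420 reached 0.203. Within the 8 untreated arrays, AT4G20830 and AT1G26380 had 0.834 and AT4G20860 and AT1G26420 had 0.254.

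Among the tested probe sets outside the family that carry 1 named locus, the signals most like those of AT4G20830 over the 16 arrays were those of AT1G19020 (r = 0.992), AT5G48540 (0.988) and AT3G05500 (0.987). AT1G19020 remained close within the avrB arrays (0.873) and within the untreated arrays (0.961). Its signals were 1882 and 2284 units after avrB against 27.6 and 38.6 units untreated in atgsnor1-3, and 707 and 919.5 units after avrB against 156 and 186 units untreated in Col-0. AT5G48540 was close only at rest, with 0.984 within the untreated arrays and 0.0267 within the avrB arrays.

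AT1G19020 was also the gene most like AT1G26380 (r = 0.969), followed by AT1G74360 (0.966) and AT4G38540 (0.965). For AT4G20860 the nearest were AT2G25735 (0.977), AT5G05600 (0.976) and PUB23 (AT2G35930), which encodes a ubiquitin ligase of the immune response (0.971). For AT1G26420 they were AT5G22530 (0.977), AT2G31390 (0.975) and AT3G13910 (0.966). These values are over 16 arrays each and share the same split into avrB and untreated leaves.

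The wider family was read through a list of 20 other berberine bridge enzyme-like loci. In the annotation used, 15 of these had a probe set of their own and 3 only a shared one, and 2 were not analysed here. Of the 15, 5 passed the filter and 10 lay below it. After avrB, limma called 2 of the 5 higher and 1 lower in atgsnor1-1, 1 higher and 2 lower in atgsnor1-3, 3 higher and 1 lower in sid2, and 2 higher and 0 lower in Col-0. The shares over all tested probe sets in these comparisons were 8.58% higher and 10.5% lower in atgsnor1-1, 15.0% and 20.0% in atgsnor1-3, 10.9% and 11.6% in sid2, and 7.31% and 5.07% in Col-0. Among the 5, AT5G44390 had group means of 12.7 to 20.1 units untreated and 35.8 to 108.6 units after avrB. AT5G44380 had 8.88 to 22.2 units untreated and 27.8 to 43.2 units after avrB. Both passed the filter largely through their signals after avrB, so the counts are a description and are not read against these shares. The median log2 difference of the 5 was 0.86 in atgsnor1-1, 0.48 in atgsnor1-3, 2.11 in sid2 and 1.57 in Col-0.

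AT2G34810 was called higher after avrB in the other genotypes but not in atgsnor1-3. It had 161 and 179 units after avrB and 90.7 and 164 units untreated in atgsnor1-3, where the 2 states overlapped. In Col-0 the signals were 700.1 and 433 units after avrB against 124 and 54.5 units untreated. It rose by 2.43 ± 0.34 on the log2 scale in atgsnor1-1, by 2.45 ± 0.34 in sid2 and by 2.75 ± 0.34 in Col-0 (limma, adjusted p = 4.24e-05, 3.03e-05 and 2.96e-05). In atgsnor1-3 the difference was 0.48 ± 0.34 (adjusted p = 0.257). That response differed from the one of Col-0 by -2.27 ± 0.48 (adjusted p = 0.00370), and the atgsnor1-3 level after avrB was lower than in Col-0 by -1.70 ± 0.34 (adjusted p = 0.00172). Untreated, AT2G34810 was called higher in sid2 than in Col-0, by 1.22 ± 0.34 (limma, adjusted p = 0.0298). That call was lost with a variance fitted without a trend (adjusted p = 0.0838), and the difference was 0.63 without Col-0 untreated replicate 2.

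Relatives on chromosome 5 moved in both directions. AT5G44400 had 52.3 and 21.1 units after avrB against 189.6 and 116 units untreated in atgsnor1-3, and 233 and 210.2 units after avrB against 223 and 301 units untreated in Col-0. It fell by 2.16 ± 0.33 in atgsnor1-3 (limma, adjusted p = 3.94e-05), differed in response from Col-0 by -1.93 ± 0.46 (adjusted p = 0.00799), and was not called in any other genotype. AT5G44410 fell by 1.52 in atgsnor1-1, by 2.13 in atgsnor1-3 and by 1.81 in sid2, and its difference of -0.89 in Col-0 was not called (adjusted p = 0.132). The atgsnor1-1 call was lost without avrB replicate 1 (-1.16, adjusted p = 0.0973) or untreated replicate 2 (-1.17, adjusted p = 0.116) of that line.

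AT5G44390, which shares their stretch of locus numbers, rose by 2.26 in atgsnor1-1, by 2.36 in atgsnor1-3, by 2.11 in sid2 and by 2.49 in Col-0 (limma, adjusted p = 0.0250, 0.0127, 0.0319 and 0.0201). Each of these calls was lost without single arrays. In atgsnor1-3 the value was 0.59 (adjusted p = 0.261) without untreated replicate 1, an array at 2.02 units, and 2.14 (0.0706) without avrB replicate 1. In sid2 and atgsnor1-1 the call was lost without any 1 of the line's 4 arrays, with adjusted p up to 0.174 in sid2 and 0.117 in atgsnor1-1. In Col-0 it was lost without avrB replicate 1 (0.0862), avrB replicate 2 (0.0962) or untreated replicate 1 (0.122). AT5G44380 was called higher in sid2 (2.52 ± 0.89, adjusted p = 0.0346), and without either avrB replicate or without untreated replicate 1 of sid2 it was not (adjusted p = 0.150, 0.0939 and 0.266).

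Below the filter, AT1G30700 and the probe set shared by AT1G30720 and AT1G30730 were called higher after avrB in every genotype in a limma fit without the filter. They are named because of these calls and do not stand for the other dim relatives, as 10 loci with a probe set of their own lay below the filter. The calls among the others and the share over all probe sets in that fit are not given here. Whether untreated signals this low measure transcript was not tested. AT1G30700 had 99.2 and 114 units after avrB against 1.43 and 5.50 units untreated in atgsnor1-3, and 37.2 and 29.8 units after avrB against 12.3 and 1.04 units untreated in Col-0. It rose by 3.52 in atgsnor1-1, 5.25 in atgsnor1-3, 5.84 in sid2 and 3.22 in Col-0 (adjusted p = 0.0197, 0.000579, 0.000358 and 0.0436). The shared probe set rose by 3.06, 5.48, 5.39 and 3.25 in the same order (adjusted p = 0.00405, 8.26e-06, 1.78e-05 and 0.00403), and its untreated level was lower in atgsnor1-3 than in Col-0 by -2.81 ± 0.70 (adjusted p = 0.0158).

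**Figure D4:**
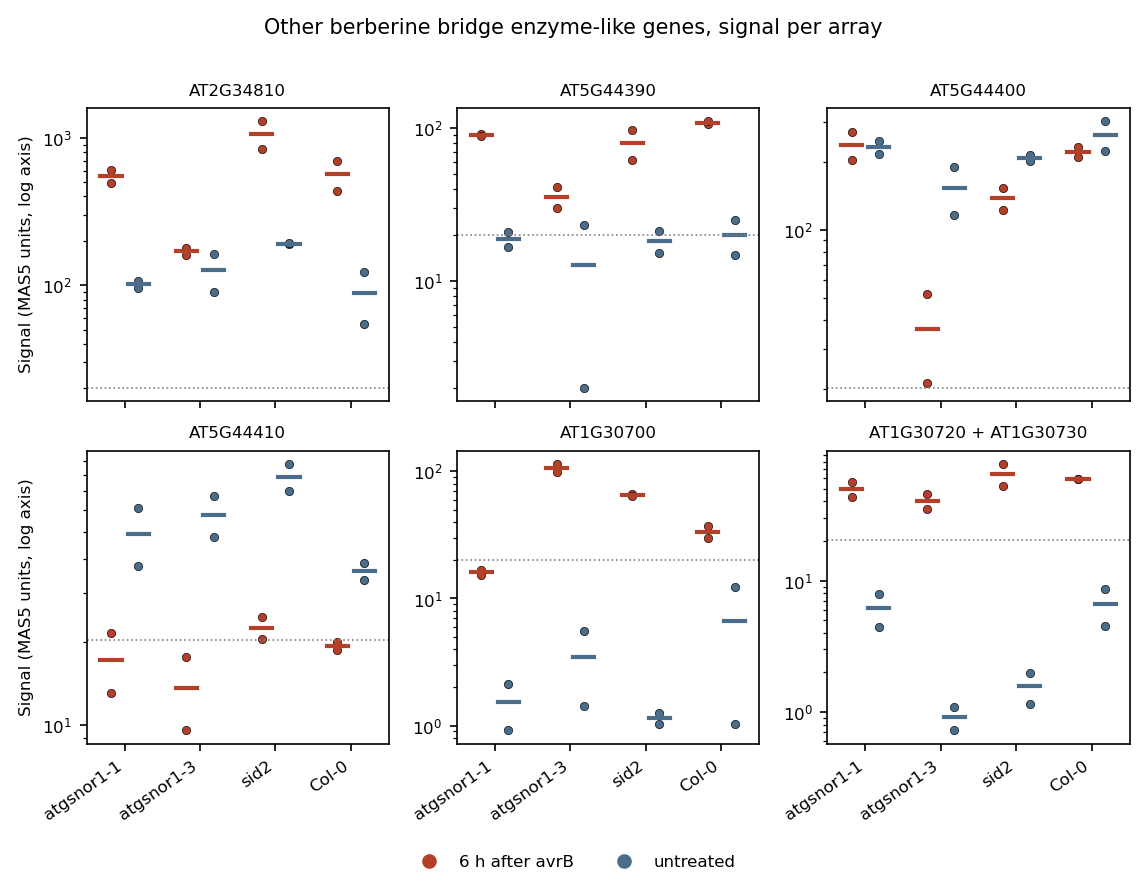
Signals of relatives outside the 7 loci on each of the 16 arrays, in MAS5 intensity units on a log axis, avrB left of untreated in each genotype, with the dotted line at 20.2 units. AT2G34810 after avrB reads 161 and 179 units in atgsnor1-3, against 433 and 700.1 units in Col-0, and AT5G44400 after avrB is lowest in atgsnor1-3.

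The lists of genes that act with these enzymes could be read only in part. For the 10 loci of camalexin and indole carbonyl nitrile synthesis, the pathway of FOX1, none was analysed here. Of 8 loci of pectin fragment sensing and release, 1 was tested, the receptor-like kinase gene AT5G25440. It had 308 and 287 units after avrB against 23.2 and 33.0 units untreated in atgsnor1-3, and 365 and 432 units after avrB against 168 and 224 units untreated in Col-0. Its log2 response was 1.10 in atgsnor1-1, 3.43 in atgsnor1-3, 3.15 in sid2 and 1.03 in Col-0, and limma called each. The atgsnor1-1 and Col-0 values lie at the edge of the size required, and fell below it without atgsnor1-1 avrB replicate 2 (0.94), without Col-0 avrB replicate 2 (0.91), and without Col-0 untreated replicate 1 (0.83). Its untreated level was below that of Col-0 by -2.81 in atgsnor1-3 and by -2.37 in sid2, the same 2 lines in which AT4G20830 was lower at rest.

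Hydrogen peroxide is a product of several enzymes of the family and a substrate of peroxidases, and 2 of the 9 loci of the oxidative burst and apoplastic peroxidases were tested. AT5G64120, a cell wall peroxidase gene, rose by 3.80 in atgsnor1-1, 3.66 in atgsnor1-3, 3.90 in sid2 and 3.90 in Col-0, and limma called none of the 3 differences in response between a mutant and Col-0. Its level in atgsnor1-3 was called lower than in Col-0 after avrB, at 717 and 607 units against 1648 and 1482 units (-1.24 ± 0.27, adjusted p = 0.00325), and at rest, at 35.3 and 76.9 units against 90.1 and 121 units (0.499 of the Col-0 level, adjusted p = 0.0182). The second call was lost without atgsnor1-3 untreated replicate 1 (-0.44, adjusted p = 0.216) and without Col-0 untreated replicate 2 (-0.79, adjusted p = 0.138). AT4G21960, which encodes the peroxidase PRXR1, had 628 and 359 units after avrB against 6033 and 6491 units untreated in atgsnor1-3, and 3225 and 3166 units after avrB against 6291 and 5897 units untreated in Col-0. It fell by 1.23 in atgsnor1-1, by 3.72 in atgsnor1-3 and by 2.07 in sid2, while the Col-0 difference of -0.93 stayed under the size required for a call (adjusted p = 0.00330).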

How the data were processed

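Leaf RNA was labelled with biotin and hybridised to 1-colour ATH1 arrays, per the labels' protocols. The authors deposited 1 linear intensity value per probe set and array, made with GCOS and MAS5 per the submitters' processing notes. Software versions and the genome build are not stated in these sources. From the values, each array had a mean near 100.01 units once its lowest and highest 2% were left out.

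Arrays were grouped by genotype and treatment. The sid2 avrB array whose title carries 2 replicate numbers was taken as replicate 2. The 64 control probe sets and the dimmest 40% of the rest, with a mean log2 signal below that of 20.2 units, were left out, which left 13647 of 22810. Probe sets were named through the platform annotation and RefSeq locus tags, for 7332 of those tested.

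No pseudocount was added before taking log2. A model of 8 group means was fitted to all 16 arrays with limma 3.58.1 in R 4.3.3 (8 residual degrees of freedom, eBayes with trend). Tests were two-sided, and p-values were adjusted by Benjamini-Hochberg over all tested probe sets within each of 17 comparisons. The script was tested on simulated data. The number of arrays limits the precision.

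The family members and all gene lists were chosen with earlier results of these data known. All 7 loci are named. Of the other lists, called members and members of known role are named, up to 4 called ones of largest change. For likeness, the 3 genes outside the family with the highest Pearson correlation over 16 arrays are named. The alternatives changed 1 choice each: quantile normalization, all probe sets kept, the dimmest 60% dropped, 9.48 units added as a pseudocount, a variance without trend, a replicate block, a fit limited to the groups compared, and 1 array left out. Plots used Python 3.11.15, pandas 2.3.3 and matplotlib 3.10.9.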

Additional observations from a re-analysis of the deposited data

Results flagged for a closer look

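The responses of several genes to avrB differed between a mutant and Col-0 in limma's test of the difference itself, on the log2 scale. In atgsnor1-3 the response minus that of Col-0 was 2.84 for AT4G20830, 4.73 for AT1G26380, -2.27 for AT2G34810, -1.93 for AT5G44400, 2.39 for AT5G25440 (adjusted p = 0.000124) and -2.79 for AT4G21960 (adjusted p = 1.29e-05). In sid2 it was 1.67 for AT4G20830, 2.12 for AT5G25440 (adjusted p = 0.00189) and -1.14 for AT4G21960 (adjusted p = 0.0450). The last of these lost its call without any 1 of the 8 arrays compared (adjusted p = 0.0672 to 0.153), without the filter (0.108), without a variance trend (0.126) and with the replicate block (0.0543).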

How the results depend on the processing

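No called difference of a family member reversed under the alternatives run, and of the counts of called members under an alternative, 36 moved by over 1.5 times and 163 did not. With the filter on the dimmest 60%, which drops 2 of the 4 tested members, the members called after avrB came to 2 in each of atgsnor1-1, atgsnor1-3 and sid2. That filter also left 1 call in untreated atgsnor1-3 and 1 in untreated sid2 against Col-0, 0 in atgsnor1-3 against Col-0 after avrB and 1 in the response of atgsnor1-3 minus that of Col-0. In a fit limited to the groups compared, the calls were 1 in untreated atgsnor1-3 and 1 in untreated sid2 against Col-0, 2 in atgsnor1-3 against Col-0 after avrB, 2 against atgsnor1-1 and 1 against sid2 after avrB, and 2 in the response of sid2 minus that of Col-0. A pseudocount of 9.48 units gave 2, 2, 1 and 2 for the last 4 of these. Without a variance trend the response difference of sid2 had 0 calls, without the filter untreated atgsnor1-3 against atgsnor1-1 had 2, and with quantile normalization untreated atgsnor1-3 against sid2 had 1.

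Leaving out 1 array gave 1 to 4 calls in untreated atgsnor1-3 and 1 to 3 in untreated sid2 against Col-0, 0 to 2 in atgsnor1-3 against Col-0 after avrB, 1 to 4 in untreated atgsnor1-3 against atgsnor1-1, 0 to 2 against sid2, 2 to 4 in the response difference of atgsnor1-3 and 0 to 1 in that of sid2. A lone array was assumed to vary like the other groups.

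The replicate block gave 1 call in atgsnor1-3 against atgsnor1-1 after avrB, AT1G26380 (adjusted p = 0.0322), and called AT1G26380 in Col-0 after avrB (0.0421). It changed no other call of a family member. Deviations of arrays with the same replicate number correlated at r from -0.15 to 0.10 between groups, with 1 of 28 pairs of groups over 0.1. The lowest values, -0.15, -0.12 and -0.10, were all between untreated Col-0 and another group. With 2 arrays per group, these values cannot exclude a batch shared by arrays of the same number.

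Counts over all genes moved by over 1.5 times in a few comparisons. Untreated atgsnor1-1 against Col-0 had 20 calls, with 10 unfiltered, 6 with the stricter filter or in the limited fit, and 7 to 83 without 1 array. After avrB it had 22, with 12 unfiltered, 11 without a trend or with the block, 63 in the limited fit and 5 to 113 without 1 array. The limited fit gave 782 calls against 1199 for untreated atgsnor1-3 against Col-0, 374 against 205 for sid2 against Col-0 after avrB, and 146 against 307 for untreated atgsnor1-3 against sid2. Without 1 array these came to 94 to 146 for sid2 after avrB and 189 to 638 for untreated atgsnor1-3 against sid2. The response difference of atgsnor1-1 had 76 calls, with 42 unfiltered, 126 with the pseudocount, 29 without a trend, 119 in the limited fit and 1 to 201 without 1 array, and that of sid2 had 355, with 222 without a trend and 203 to 451 without 1 array. The causes were not tested.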
